A study of Homo sapiens with 8 samples.

Results

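Collagens are the main structural proteins of the extracellular matrix, and each is built from chains that wind into a helix. The genes described here are the human collagen chain genes, taken as every gene whose symbol is COL, a type number, A and a single digit. These are 44 of the 58302 genes in the files, and all 44 are protein-coding in GENCODE release 29. They were divided by the kind of assembly their chains enter: 11 fibrillar chains, 6 basement membrane chains (all of type IV) and 27 other chains. A count filter left 17676 genes to test, among them 31 of the 44 collagen chain genes: 10 fibrillar, 6 basement membrane and 15 other chains.

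RNA was sequenced from A549, an established human lung adenocarcinoma cell line. The 4 groups held 2 cultures each: A549 with an shRNA (a short hairpin RNA that lowers its target transcript) against the receptor tyrosine kinase AXL, A549 with a control shRNA, A549 given 40 nM TP-0903, a small-molecule AXL inhibitor, and control A549. P15 and P3 each name an AXL shRNA and a control shRNA culture, and P17 and P4 each name a TP-0903 and a control culture. The sources used here do not say what P stands for. Nor do they give the hairpin sequences, how long each treatment lasted or what the control cultures received. All cultures shared the parental line and the serum-containing medium, so every group is a model of the same tumour line. Values for a pair of libraries are given in the order P15, P3 or P17, P4. The series asks which pathways may resist TP-0903.

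Levels are TPM, each library's transcript abundances scaled to a fixed total and corrected for transcript length. Changes are log2 fold changes from edgeR's quasi-likelihood test on rounded expected counts, fitted over all 8 libraries, with the standard error (SE) over n = 2 libraries per group. A gene was called when its adjusted p (Benjamini-Hochberg, over every tested gene of the contrast) was under 0.05. The labels say biological replicates, and nothing further about how cultures were separated. Because libraries of the same P number deviated together, values with the P number as a replicate block are given where the block changes a call. AXL itself had 15.3 and 17.7 TPM in AXL shRNA cultures, against 30 and 44.5 TPM in control shRNA cultures (log2 fold change -0.92, adjusted p = 0.120 without and 8.58e-04 with the replicate block). It had 91.4 and 49.3 TPM in TP-0903 cultures, against 70.7 and 34.8 TPM in control cultures (log2 fold change 0.43, adjusted p = 0.544 without and 0.0354 with the replicate block). The transcript was lower in both AXL shRNA cultures than in both control shRNA cultures, and with TP-0903 each culture held more of it than the control culture of the same P number. Library totals ran from 30067011 to 44217023 expected counts, and mitochondrial genes took 6.79% and 7.78% of counts in AXL shRNA libraries, against 3.94% and 5.17% in control shRNA libraries, and 5.16% and 5.82% in TP-0903 libraries, against 3.68% and 3.58% in control libraries.

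Fibrillar chains, such as those of types I, III and V, form the banded fibres of connective tissue and are made mostly by fibroblasts. Type IV chains instead form the sheet-like network of basement membranes on which epithelial cells such as those of the lung rest. Their 6 genes lie in 3 head-to-head pairs that share a promoter region: COL4A1 with COL4A2, COL4A3 with COL4A4, and COL4A5 with COL4A6. The COL4A1 and COL4A2 products make the network found in nearly all basement membranes. The COL4A3, COL4A4 and COL4A5 products make the network of the lung alveolus and the kidney glomerulus, and COL4A5 also joins COL4A6. Before secretion, collagen chains are hydroxylated, glycosylated, folded and exported by a dedicated set of enzymes and chaperones, described after the chains.

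A promoter window of each type IV pair is shown because, with AXL shRNA, pair members changed in the same direction and the pairs differed in direction. Each is the RefSeq promoter window (GRCh38.p14, 250 bases before to 50 after the start) of the plus-strand member, printed 5′ to 3′ on the plus strand. Capitals mark GGGCGG or CCGCCC, the letters of a GC box on either strand, and CCAAT or ATTGG, the letters of a CCAAT box on either strand. COL4A2 is given at chr13:110307034-110307333, COL4A3 at chr2:227164374-227164673 and COL4A5 at chrX:108439588-108439887.
COL4A2: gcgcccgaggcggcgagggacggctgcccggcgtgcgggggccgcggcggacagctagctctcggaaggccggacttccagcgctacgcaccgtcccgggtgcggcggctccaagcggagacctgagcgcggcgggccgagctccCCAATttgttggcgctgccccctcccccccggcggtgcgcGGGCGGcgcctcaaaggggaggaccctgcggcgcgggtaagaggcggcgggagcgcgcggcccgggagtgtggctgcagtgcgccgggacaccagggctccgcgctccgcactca
COL4A3: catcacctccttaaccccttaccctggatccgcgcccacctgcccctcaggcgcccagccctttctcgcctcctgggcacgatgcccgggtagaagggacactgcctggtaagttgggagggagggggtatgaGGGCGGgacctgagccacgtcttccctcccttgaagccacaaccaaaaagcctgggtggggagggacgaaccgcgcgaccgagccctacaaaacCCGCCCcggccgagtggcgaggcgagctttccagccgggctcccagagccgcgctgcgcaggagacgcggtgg
COL4A5: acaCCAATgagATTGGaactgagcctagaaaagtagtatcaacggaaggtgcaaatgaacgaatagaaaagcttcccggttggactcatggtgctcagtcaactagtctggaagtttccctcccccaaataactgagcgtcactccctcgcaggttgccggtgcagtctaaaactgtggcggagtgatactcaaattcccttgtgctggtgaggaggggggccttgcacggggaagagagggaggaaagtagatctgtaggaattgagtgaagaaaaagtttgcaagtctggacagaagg
The annotated starts are 127 bases apart for COL4A1 and COL4A2, 419 bases apart for COL4A4 and COL4A3, and 380 bases apart for COL4A6 (its nearer start) and COL4A5. The COL4A2 window holds both starts of its pair, while the COL4A3 and COL4A5 windows hold only part of the stretch between the starts. The COL4A2 window holds 1 GC box and 1 CCAAT box and is 77.7% G and C. The COL4A3 window holds 2 GC boxes and no CCAAT box and is 67.7% G and C. The COL4A5 window holds no GC box and 2 CCAAT boxes and is 49.3% G and C, against a median of 58.7% over all 35116 RefSeq promoter windows. None of the 3 holds the letters TATAAA on either strand. Of all windows, 45.0% hold a GC box, 34.6% a CCAAT box and 11.5% TATAAA or its reverse complement. Over the 44 windows of the 32 collagen chain genes looked up, 24 held a GC box, 14 a CCAAT box and 8 TATAAA. These matches describe letters in a window, not binding.

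The 6 basement membrane chains were all called between AXL shRNA and control shRNA, in opposite directions by gene pair. COL4A1 and COL4A2 rose, 4.98-fold and 3.57-fold, and the other 4 chains fell by 1.54-fold (COL4A5) to 4.36-fold (COL4A4). Between TP-0903 and control, all 6 fitted values were above 0, and COL4A5 and COL4A6 were called higher. Of all tested genes, 37.5% were called between AXL shRNA and control shRNA (18.5% higher and 19.0% lower) and 11.3% between TP-0903 and control (4.90% higher and 6.35% lower).

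COL4A1 (ENSG00000187498, chr13:110148963-110307233 on the minus strand, GRCh38) had 39 and 51.5 TPM in AXL shRNA cultures, against 14.4 and 7.09 TPM in control shRNA cultures (log2 fold change 2.32, SE 0.60, adjusted p = 0.0209). It had 143 and 54.2 TPM in TP-0903 cultures, against 44.3 and 17.3 TPM in control cultures (log2 fold change 1.71, SE 0.59, adjusted p = 0.107, and 0.00125 with the block). Both AXL shRNA cultures lay above both control shRNA cultures, and both TP-0903 cultures above both controls. COL4A2 (ENSG00000134871, chr13:110305812-110513209 on the plus strand) had 78.4 and 80.8 TPM in AXL shRNA cultures, against 31.7 and 21.7 TPM in control shRNA cultures (log2 fold change 1.84, SE 0.46, adjusted p = 0.0191). It had 227 and 99.7 TPM in TP-0903 cultures, against 92.2 and 45.5 TPM in control cultures (log2 fold change 1.24, SE 0.46, adjusted p = 0.126, and 4.19e-04 with the block). Its order over the groups was that of COL4A1, and within TP-0903 and within control the P17 culture had the higher level of both genes.

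COL4A3 (ENSG00000169031, chr2:227164565-227314792 on the plus strand) had 2.02 and 1.40 TPM in AXL shRNA cultures, against 5.67 and 4.93 TPM in control shRNA cultures (log2 fold change -1.67, SE 0.34, adjusted p = 0.00889). It had 2.16 and 4.02 TPM in TP-0903 cultures, against 1.46 and 2.62 TPM in control cultures, where the groups overlapped (log2 fold change 0.38, adjusted p = 0.513). COL4A4 (ENSG00000081052, chr2:227002711-227164453 on the minus strand) had 1.31 and 0.92 TPM in AXL shRNA cultures, against 6.43 and 5.17 TPM in control shRNA cultures (log2 fold change -2.12, SE 0.27, adjusted p = 0.00152). It had 2.55 and 3.65 TPM in TP-0903 cultures, against 2.19 and 3.12 TPM in control cultures, again with overlap (log2 fold change 0.26, adjusted p = 0.579). Both were thus low in every group, and lowest in both AXL shRNA cultures only for COL4A4. Without TP-0903 P4, the fitted values of this pair under TP-0903 were -0.03 and -0.01.

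COL4A5 (ENSG00000188153, chrX:108439844-108697545 on the plus strand) had 28.1 and 24.5 TPM in AXL shRNA cultures, against 42.9 and 45.7 TPM in control shRNA cultures (log2 fold change -0.63, SE 0.14, adjusted p = 0.0125). It had 46.9 and 35.5 TPM in TP-0903 cultures, against 20 and 24.6 TPM in control cultures (log2 fold change 1.04, SE 0.14, adjusted p = 0.00522). COL4A6 (ENSG00000197565, chrX:108155607-108439497 on the minus strand) had 12.6 and 11.4 TPM in AXL shRNA cultures, against 36.2 and 39.6 TPM in control shRNA cultures (log2 fold change -1.56, SE 0.17, adjusted p = 9.96e-04). It had 39.5 and 28.6 TPM in TP-0903 cultures, against 18.9 and 19.1 TPM in control cultures (log2 fold change 0.83, SE 0.17, adjusted p = 0.0237). For both genes the AXL shRNA cultures lay below both control shRNA cultures, and the TP-0903 cultures above both controls.

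**Figure D1:**
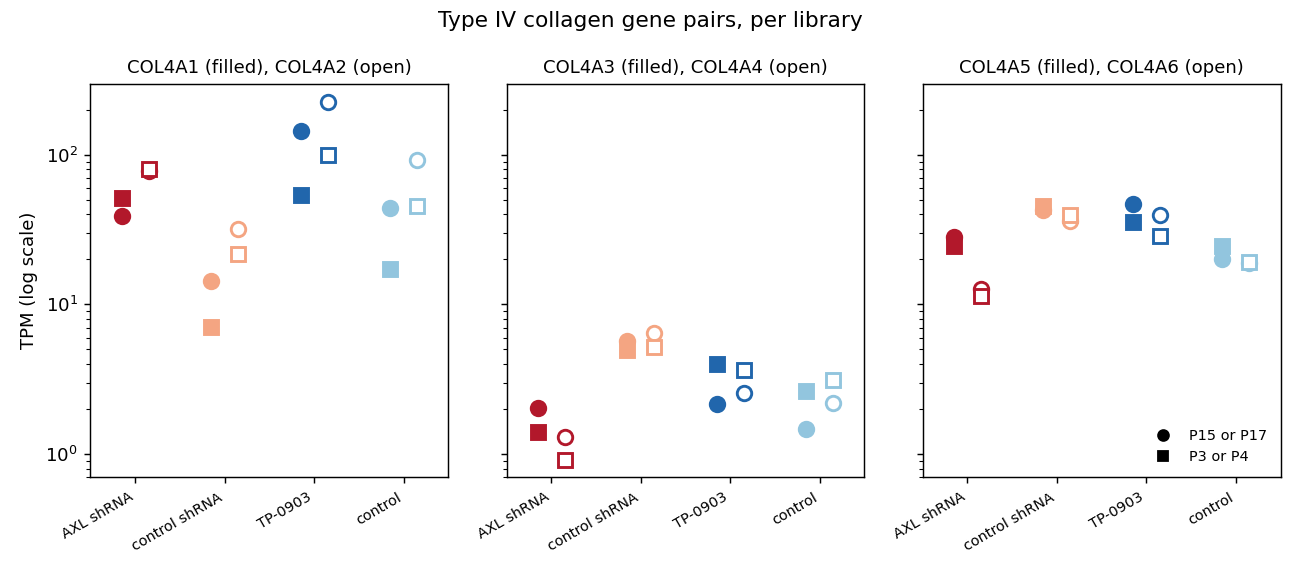
TPM of the 6 type IV collagen genes in each library, by gene pair, on a log axis; filled points are the first gene of a pair and open points the second, circles P15 or P17 and squares P3 or P4. COL4A1 and COL4A2 stand higher in AXL shRNA than in control shRNA cultures, while the other 2 pairs stand lower, and the 2 genes of a pair follow each other.

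The make-up of the type IV transcripts therefore differed between AXL shRNA and control shRNA cultures. COL4A1 and COL4A2 gave 72.7% and 77.6% of summed type IV TPM in AXL shRNA cultures, against 33.6% and 23.2% in control shRNA cultures. COL4A5 and COL4A6 gave 25.2% and 21.1% in AXL shRNA cultures, against 57.6% and 68.7% in control shRNA cultures. They gave 21.8% and 39.0% in control cultures. With TP-0903 the COL4A1 and COL4A2 share was 80.2% and 68.2%, against 76.2% and 55.9% in control cultures, and within each P number it was higher with TP-0903. Both shares in AXL shRNA cultures thus lay nearer those of control cultures than those of control shRNA cultures. Within pairs, COL4A5 had 2.23 and 2.14 times the TPM of COL4A6 in AXL shRNA cultures, against 1.19 and 1.15 times in control shRNA cultures. In TP-0903 cultures that ratio was 1.19 and 1.24, against 1.06 and 1.29 in control cultures, where the groups overlapped.

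The control shRNA cultures themselves stood apart from the control cultures in this family. COL4A3, COL4A4, COL4A5 and COL4A6 were called higher in control shRNA than in control cultures, with log2 fold changes of 1.41 (adjusted p = 0.0460), 1.10 (0.0454), 0.95 (0.00930) and 0.97 (0.0180). Leaving out 1 library ended these calls in 5 of 8 fits for COL4A3 (adjusted p = 0.0517 to 0.271), 6 for COL4A4 (0.0551 to 0.268), 2 for COL4A5 (0.0513 without control shRNA P15 and 0.0938 without control P17) and 4 for COL4A6, those without a library of either control group (0.0518 to 0.121). Those of COL4A3 and COL4A4 were also lost on log2(TPM + 1) (adjusted p = 0.0726 and 0.0615), on log2(TPM + 0.1) (0.0864 and 0.0862) and with effective lengths as offsets (0.0779 and 0.0502). COL4A1 and COL4A2 had fitted values of -1.55 (adjusted p = 0.141) and -1.40 (adjusted p = 0.103). Set against control in place of control shRNA, a comparison added after the data were seen, AXL shRNA gave -1.03 (adjusted p = 0.0215) for COL4A4 and -0.59 (adjusted p = 0.0322) for COL4A6, both still lower. It gave 0.77 (adjusted p = 0.328) for COL4A1, 0.44 (adjusted p = 0.479) for COL4A2, -0.26 (adjusted p = 0.584) for COL4A3 and 0.32 (adjusted p = 0.111) for COL4A5, none of them called. Hairpin, culture and run cannot be told apart between the control groups. Leaving out 1 library ended the AXL shRNA calls of COL4A1 (adjusted p = 0.109 without control shRNA P3 and 0.0727 without AXL shRNA P3) and COL4A5 (adjusted p = 0.0511 and 0.0704 without the same libraries, and 0.0521 with effective lengths as offsets), and that of COL4A2 without control shRNA P15 (0.0552), AXL shRNA P15 (0.0543), control shRNA P3 (0.102) or AXL shRNA P3 (0.0609). It ended the TP-0903 calls of COL4A5 (adjusted p = 0.0515 without control P17) and COL4A6 (adjusted p = 0.109 without control P17, 0.121 without TP-0903 P17 and 0.116 without control P4). The COL4A6 call was also lost in a fit of the 4 TP-0903 and control libraries alone (adjusted p = 0.0515).

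Among the fibrillar chains, 5 of 10 tested were called higher with AXL shRNA, namely COL1A1, COL2A1, COL3A1, COL5A2 and COL5A3. COL2A1 passed the count filter through the AXL shRNA libraries alone, which made a high value there a condition of being tested, so the count without it is 4 of 9, or 44.4%, against 37.5% of all tested genes. The class median log2 fold change was 0.80, the same with COL2A1 at its bound, or 0.59 without it, against -0.01 over all tested genes. With TP-0903, 1 of the 10 was called, COL27A1, which was higher, or 10%, against 11.3% of all tested genes, and the median was 0.34, against -0.02 over all tested genes. With the replicate block 7 fibrillar chains were called with AXL shRNA (6 higher and 1 lower, or 5 higher and 1 lower without COL2A1), against 51.7% of all tested genes under the block. With TP-0903 it called 4 (3 higher and 1 lower), against 26.3% of all tested genes. In bulk RNA, a larger share of cells with a transcript and more RNA per cell cannot be told apart.

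The largest fitted rise among chains present in every library was that of COL3A1 (ENSG00000168542, chr2:188974320-189012746 on the plus strand), the chain of type III collagen of elastic and early repair tissue. It had 6.78 and 15.3 TPM in AXL shRNA cultures, against 0.57 and 0.73 TPM in control shRNA cultures (log2 fold change 4.29, SE 0.51, adjusted p = 0.00118, 19.5-fold). It had 1.25 and 0.99 TPM in TP-0903 cultures, against 1.07 and 2.03 TPM in control cultures (log2 fold change -0.98, adjusted p = 0.221; with the block -0.96, adjusted p = 0.00721). Both AXL shRNA cultures were far above the 6 others, and the TP-0903 and control cultures overlapped. On TPM the TP-0903 culture was the higher at P17 and the lower at P4. Its expected counts were lower at both, 69 against 145 at P17 and 119 against 288 at P4. COL5A3 (ENSG00000080573, chr19:9959561-10010471 on the minus strand), a minor chain of type V collagen, had 2.97 and 4.67 TPM in AXL shRNA cultures, against 0.26 and 0.22 TPM in control shRNA cultures (log2 fold change 4.20, SE 0.38, adjusted p = 5.58e-04, 18.4-fold). It had 0.60 and 0.38 TPM in TP-0903 cultures, against 0.19 and 0.37 TPM in control cultures (log2 fold change 0.97, adjusted p = 0.130). The AXL shRNA cultures were again far above the 6 others, and 4% of the gene's exon bases are shared with the opposite-strand gene AC008742.1, whose reads cannot be separated without strand. Against control, AXL shRNA gave 3.10 (adjusted p = 0.00272) for COL3A1 and 4.10 (adjusted p = 4.96e-04) for COL5A3.

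COL1A1 (ENSG00000108821, chr17:50183289-50201632 on the minus strand), the major chain of type I collagen, had 8.67 and 14.3 TPM in AXL shRNA cultures, against 5.90 and 4.80 TPM in control shRNA cultures (log2 fold change 1.30, SE 0.35, adjusted p = 0.0246). It had 3.92 and 4.78 TPM in TP-0903 cultures, against 9.54 and 5.59 TPM in control cultures (log2 fold change -0.52, adjusted p = 0.381). Its AXL shRNA cultures lay above both control shRNA cultures, but the lower of them was below control P17. Against control, AXL shRNA gave 0.88 (adjusted p = 0.0867), and the call against control shRNA was lost without control shRNA P15 (adjusted p = 0.0720), control shRNA P3 (0.115) or AXL shRNA P3 (0.126), the last with a log2 fold change of 0.70. COL1A2, whose product pairs with that of COL1A1 in ordinary type I collagen, had 0.02 TPM at most and 0 to 3 expected counts per library, and was not tested. COL3A1 stood at 0.782 and 1.08 times the TPM of COL1A1 in AXL shRNA cultures, against 0.0966 and 0.152 times in control shRNA cultures. The gap was wide relative to the spread within either group.

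COL5A2 (ENSG00000204262, chr2:189031896-189225312 on the minus strand), a chain of type V collagen, was the most abundant fibrillar chain in every library, with 58.7% to 78.8% of the class TPM. It had 116 and 172 TPM in AXL shRNA cultures, against 109 and 115 TPM in control shRNA cultures (log2 fold change 0.59, SE 0.19, adjusted p = 0.0454). It had 214 and 240.1 TPM in TP-0903 cultures, against 156 and 175 TPM in control cultures (log2 fold change 0.48, adjusted p = 0.145, and 0.0188 with the block). The AXL shRNA P15 level was close to both control shRNA levels, and the call was lost in 7 of 8 fits that left out 1 library (adjusted p = 0.0644 to 0.245), all but the fit without AXL shRNA P15. It was also lost on library totals (adjusted p = 0.142), log2(TPM + 1) (0.191) and log2(TPM + 0.1) (0.188), with effective lengths as offsets (0.0563) and with the 4 libraries of the comparison alone (0.0984). Against control, AXL shRNA gave 0.01 (adjusted p = 0.973). Its neighbour COL3A1 lies 19149 bases away on the same chromosome, tail to tail. COL5A1, the partner of COL5A2 in type V collagen, had 39.1 and 46.5 TPM in AXL shRNA cultures, against 31.9 and 17.8 TPM in control shRNA cultures (log2 fold change 1.01, adjusted p = 0.181, and 0.00417 with the block). It had 80.8 and 40.1 TPM in TP-0903 cultures, against 77.4 and 25.4 TPM in control cultures (log2 fold change 0.19, adjusted p = 0.859), with the P17 culture high in both groups.

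COL2A1, the chain of cartilage type II collagen, was at the edge of detection. It had 0.16 and 0.26 TPM and 15 and 32 expected counts in AXL shRNA cultures, against 0 counts in both control shRNA cultures. It had no more than 2 counts in any TP-0903 or control culture, though these gave 0.15 TPM in control P4. Set against a floor of 3 counts per library for the control shRNA cultures, it was at least 6.75-fold higher with AXL shRNA. It passed the count filter through the AXL shRNA libraries alone, so its edgeR call (adjusted p = 0.00763) is not read as a result. On log2(TPM + 1) its call was lost (adjusted p = 0.0645). COL27A1, a fibrillar chain best known from cartilage, had 10.6 and 13.9 TPM in TP-0903 cultures, against 7.77 and 7.98 TPM in control cultures (log2 fold change 0.73, SE 0.10, adjusted p = 0.00562). It had 12 and 12.8 TPM in AXL shRNA cultures, against 13 and 12.3 TPM in control shRNA cultures, with overlap (log2 fold change 0.06, adjusted p = 0.665), and it was called higher in control shRNA than in control cultures (0.84, adjusted p = 0.00417). Both calls were lost on log2(TPM + 1) and log2(TPM + 0.1), with adjusted p = 0.0759 and 0.0681 for TP-0903 and 0.0648 and 0.0602 for control shRNA. The 2 control cultures had the lowest levels of the 8, and against control AXL shRNA gave 0.90 (adjusted p = 9.98e-04). COL11A1, which helps start cartilage fibrils, had 10.4 and 7.39 TPM in AXL shRNA cultures, against 14.7 and 5.81 TPM in control shRNA cultures, and 9.05 and 4.43 TPM in TP-0903 cultures, against 11.3 and 4.37 TPM in control cultures. Its groups overlapped in both comparisons, and the P15 or P17 culture was the higher in all 4 groups. Of the remaining tested fibrillar chains, COL11A2 and COL24A1 ranged from 0.01 to 2.46 TPM and were called only with the block, COL11A2 higher with TP-0903 (adjusted p = 0.0111) and COL24A1 lower with AXL shRNA (adjusted p = 0.0421).

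**Figure D2:**
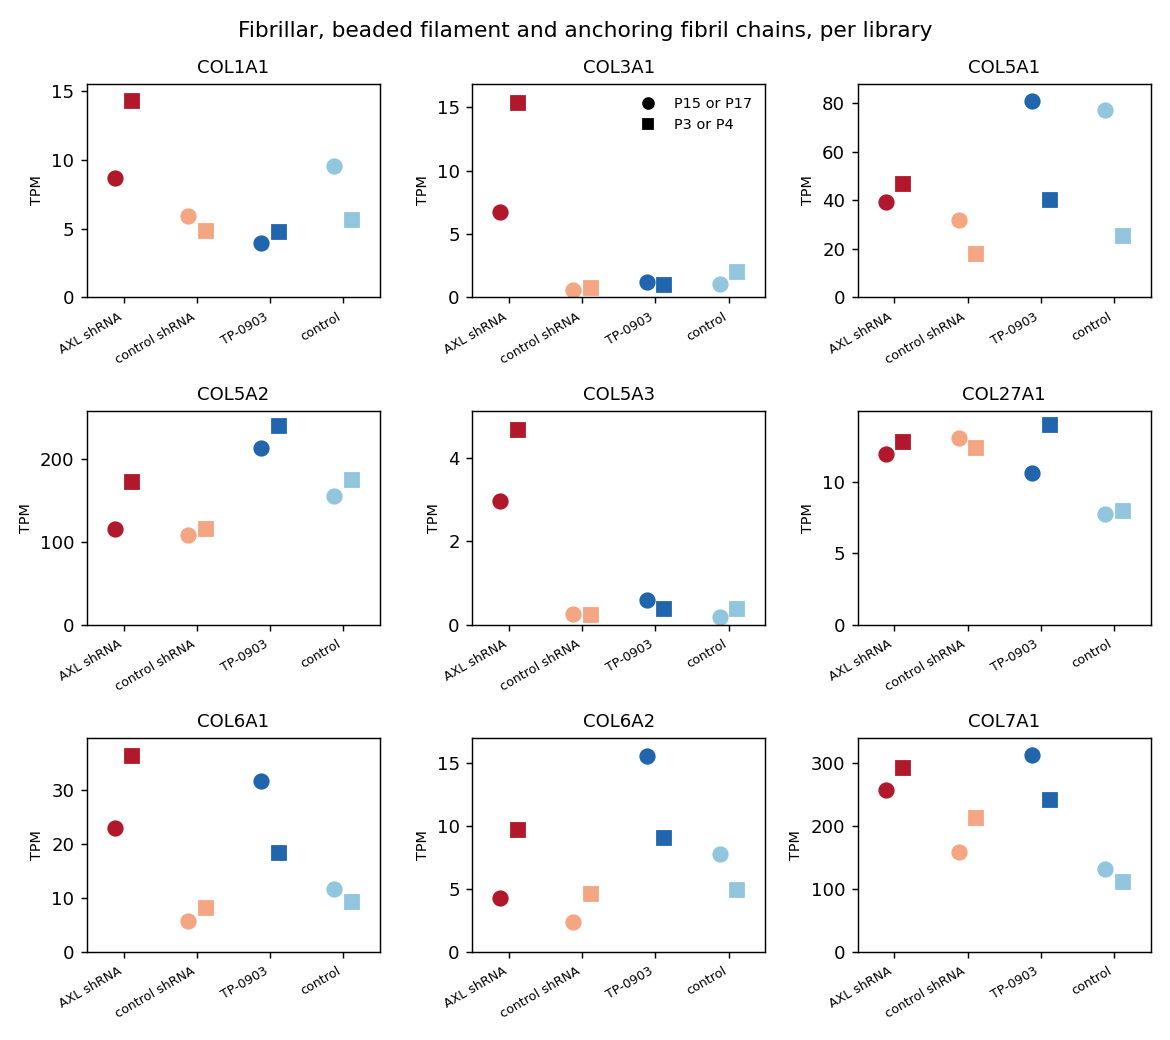
TPM per library of 9 collagen chain genes, 1 panel a gene with its own linear axis from 0; circles are P15 or P17 and squares P3 or P4, in the 4 groups. COL3A1 and COL5A3 reach 15.3 and 4.67 TPM in AXL shRNA cultures and stay at or under 2.03 and 0.60 TPM in the other 6 libraries, while COL7A1 is higher in both treated groups than in their own controls.

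Of the 15 other chains tested, COL6A1 and COL7A1 were called higher in both comparisons. COL26A1 was the only other member of this class to pass, lower with TP-0903. The share called was 13.3% with AXL shRNA, below the 37.5% of all tested genes. With TP-0903 it was 20%, against 11.3% of all tested genes. COL6A1 (ENSG00000142156, chr21:45981737-46005050 on the plus strand), a chain of the beaded filaments of type VI collagen, had 23 and 36.3 TPM in AXL shRNA cultures, against 5.74 and 8.04 TPM in control shRNA cultures (log2 fold change 2.42, SE 0.32, adjusted p = 0.00176, 5.35-fold). It had 31.8 and 18.3 TPM in TP-0903 cultures, against 11.6 and 9.19 TPM in control cultures (log2 fold change 1.28, SE 0.31, adjusted p = 0.0414, 2.42-fold). Every treated culture lay above its controls. The AXL shRNA call was kept without any 1 library and against control (1.72, adjusted p = 0.00557). The TP-0903 call was lost without control shRNA P15 (adjusted p = 0.0566), control shRNA P3 (0.0573), control P17 (0.112), TP-0903 P17 (0.225) or control P4 (0.189), with a log2 fold change of 0.83 without TP-0903 P17. It was also lost on log2(TPM + 1) (adjusted p = 0.0694), log2(TPM + 0.1) (0.0633), with effective lengths as offsets (0.0506) and with the 4 libraries of the comparison alone (0.0588).

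COL6A2 lies 93046 bases beyond COL6A1 on chromosome 21 and encodes its partner chain. It had 4.25 and 9.72 TPM in AXL shRNA cultures, against 2.38 and 4.61 TPM in control shRNA cultures (log2 fold change 1.24, adjusted p = 0.0852, and 3.29e-04 with the block). It had 15.6 and 9.09 TPM in TP-0903 cultures, against 7.82 and 4.90 TPM in control cultures (log2 fold change 0.79, adjusted p = 0.329, and 0.00499 with the block). Levels overlapped between AXL shRNA and control shRNA, though the AXL shRNA culture was the higher within each P number. COL6A1 stood at 5.42 and 3.74 times the TPM of COL6A2 in AXL shRNA cultures, against 2.41 and 1.74 times in control shRNA cultures. COL6A3, whose product completes the usual type VI molecule, reached only 0.23 TPM and was not tested.

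COL7A1 (ENSG00000114270, chr3:48564073-48595267 on the minus strand) encodes the anchoring fibrils that fix a basement membrane to the matrix below it, and it took 48.9% to 65.6% of the TPM of the other chains in each library. It had 257 and 292 TPM in AXL shRNA cultures, against 159 and 212 TPM in control shRNA cultures (log2 fold change 0.66, SE 0.20, adjusted p = 0.0374). It had 313 and 241 TPM in TP-0903 cultures, against 131 and 110.5 TPM in control cultures (log2 fold change 1.20, SE 0.20, adjusted p = 0.0114). Treated and control cultures did not overlap in either comparison. Against control, AXL shRNA gave 1.23 (adjusted p = 0.00375). The AXL shRNA call was lost without control shRNA P15 (adjusted p = 0.170), AXL shRNA P15 (0.0974) or AXL shRNA P3 (0.118), and on library totals (0.0915), and the TP-0903 call without TP-0903 P17 (0.0761) or control P4 (0.0742).

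COL18A1, a basement membrane proteoglycan collagen whose end fragment is endostatin, had 105 and 81.3 TPM in AXL shRNA cultures, against 122 and 115 TPM in control shRNA cultures (log2 fold change -0.11, adjusted p = 0.626). It had 81.1 and 94.8 TPM in TP-0903 cultures, against 62.7 and 69 TPM in control cultures (log2 fold change 0.45, adjusted p = 0.109, and 0.0318 with the block). It was called higher in control shRNA than in control cultures (0.84, adjusted p = 0.0225), and the call was lost without control shRNA P15 (adjusted p = 0.0860), control shRNA P3 (0.0821), control P17 (0.172) or control P4 (0.0636). It shares 16.4% of its exon bases with SLC19A1 on the other strand, so part of its counts is uncertain. COL26A1 had 0.74 and 0.72 TPM in TP-0903 cultures, against 1.47 and 2.37 TPM in control cultures (log2 fold change -1.46, SE 0.35, adjusted p = 0.0376), and 1.35 and 1.48 TPM in AXL shRNA cultures, against 1.07 and 1.25 TPM in control shRNA cultures (log2 fold change 0.53, adjusted p = 0.255). Its TP-0903 call was lost in 6 of 8 fits that left out 1 library, those without AXL shRNA P15, AXL shRNA P3 or any TP-0903 or control library (adjusted p = 0.0564 to 0.171), and also on log2(TPM + 0.1) (0.0538) and with the 4 libraries of the comparison alone (0.0592).

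COL12A1, a chain on the surface of fibrils, had 10.7 and 6.29 TPM in AXL shRNA cultures, against 17 and 9.24 TPM in control shRNA cultures, and 16.7 and 8.73 TPM in TP-0903 cultures, against 11.8 and 5.46 TPM in control cultures. Groups overlapped in both comparisons, and the P15 or P17 culture was the higher in all 4 groups. With the block, COL12A1 was called lower with AXL shRNA (-0.31, adjusted p = 0.0299) and higher with TP-0903 (0.59, adjusted p = 0.00373). COL16A1, also fibril-associated, had 6.15 and 9.55 TPM in AXL shRNA cultures, against 9.31 and 5.91 TPM in control shRNA cultures, and 12.9 and 8.57 TPM in TP-0903 cultures, against 6.74 and 4.96 TPM in control cultures (log2 fold change 0.73, adjusted p = 0.0845, and 0.00828 with the block). COL17A1, the transmembrane collagen of hemidesmosomes, and COL9A3 were taken up after their values were seen. COL17A1 had 2.20 and 3.17 TPM in AXL shRNA cultures, against 1.64 and 0.89 TPM in control shRNA cultures (log2 fold change 1.31, adjusted p = 0.0665, and 0.00226 with the block). It had 3.45 and 2.58 TPM in TP-0903 cultures, against 1.67 and 0.68 TPM in control cultures (log2 fold change 0.97, adjusted p = 0.228, and 0.0278 with the block). COL9A3, at 0.71 TPM at most, was called lower with TP-0903 only with the block (adjusted p = 0.0452).

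**Figure D3:**
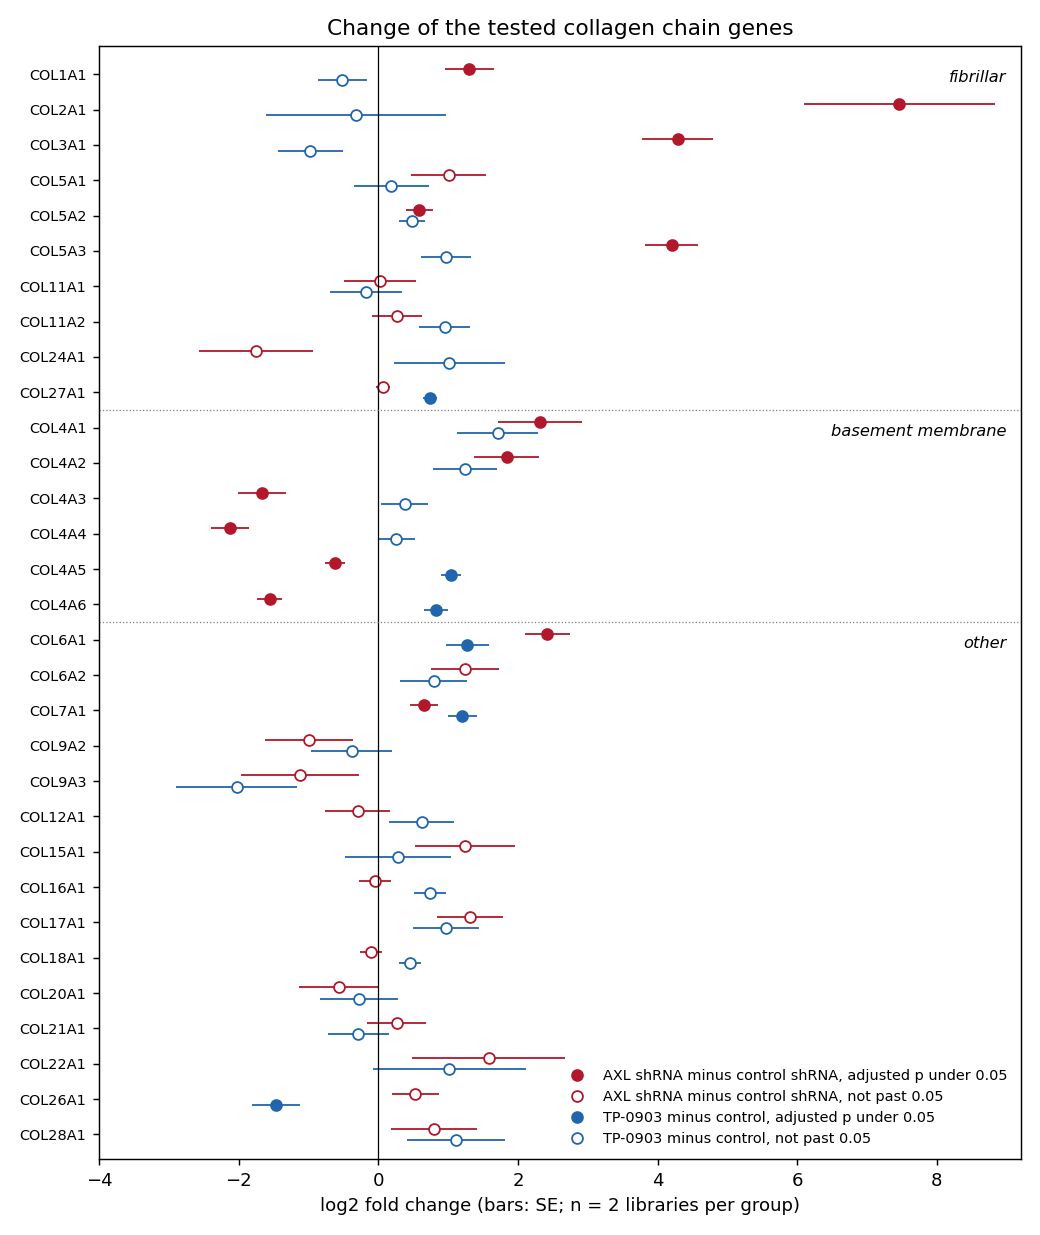
Log2 fold change of the 31 tested collagen chain genes, by class, with red for AXL shRNA minus control shRNA and blue for TP-0903 minus control; bars are the SE (n = 2 libraries per group) and filled points are called. The type IV genes run in opposite directions with AXL shRNA and stand above 0 with TP-0903; the COL2A1 point rests on a control shRNA group at 0 counts, and its place on the axis depends on the fit's prior count.

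Over all collagen chain genes tested, 13 of 31 were called with AXL shRNA (9 higher and 4 lower), or 41.9%, against 37.5% of all tested genes. Without COL2A1 these were 12 of 30, or 40%. The median log2 fold change was 0.53, the same with COL2A1 at its bound, or 0.40 without it, against -0.01 over all tested genes. With TP-0903, 6 of 31 were called (5 higher and 1 lower), or 19.4%, against 11.3% of all tested genes, and the median was 0.62, against -0.02 over all tested genes. With the replicate block, 18 of 31 were called with AXL shRNA (12 higher and 6 lower, or 11 and 6 without COL2A1), against 51.7% of all tested genes. With the block, 17 of 31 were called with TP-0903 (14 higher and 3 lower), against 26.3% of all tested genes. TPM levels of treated and control cultures did not overlap for 20 of the 31 with AXL shRNA (12 higher and 8 lower), against 68.4% of all tested genes. The 12 include COL2A1, which was tested only through its AXL shRNA libraries. With TP-0903 they did not overlap for 19 of the 31 (16 higher and 3 lower), against 57.6% of all tested genes.

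Summed over the class, basement membrane chains had 161 and 171 TPM in AXL shRNA cultures, against 137 and 124 TPM in control shRNA cultures. They had 461 and 226 TPM in TP-0903 cultures, against 179 and 112 TPM in control cultures. Fibrillar chains had 198 and 276 TPM in AXL shRNA cultures, against 177 and 159 TPM in control shRNA cultures, and 322 and 307 TPM in TP-0903 cultures, against 264 and 223 TPM in control cultures. Other chains had 417 and 445 TPM in AXL shRNA cultures, against 325 and 364 TPM in control shRNA cultures, and 478 and 389 TPM in TP-0903 cultures, against 239 and 212 TPM in control cultures. In all 3 classes and both comparisons, the treated sums lay above both control sums. The log2 ratio of the group means was 0.50 for fibrillar, 0.34 for basement membrane and 0.32 for other chains with AXL shRNA, and 0.37, 1.24 and 0.94 in the same order with TP-0903. No test was made on these sums, since 2 libraries against 2 cannot reach the threshold in an exact permutation test.

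**Figure D4:**
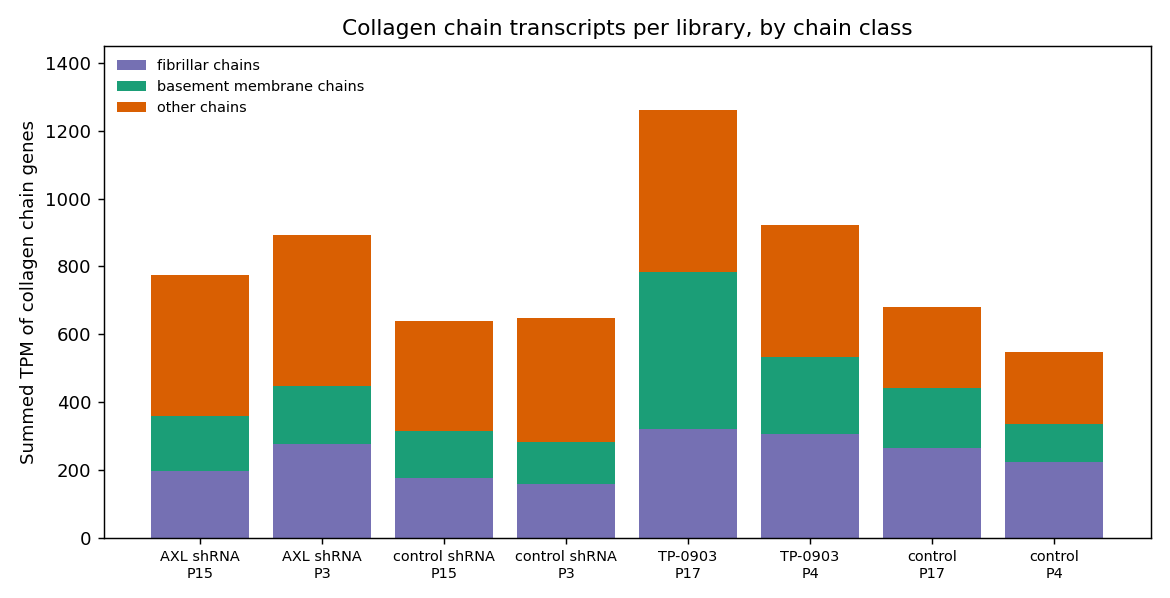
Summed TPM of the 44 collagen chain genes in each library, stacked by class (fibrillar at the bottom, basement membrane in the middle, other chains on top). The totals are 776 and 892 TPM with AXL shRNA, against 639 and 647 TPM with control shRNA, and 1261 and 922 TPM with TP-0903, against 682 and 547 TPM in control cultures.

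The cells held transcripts of only part of the family. From 20 to 24 of the 44 genes reached 1 TPM in a library, and 16 did so in all 8. COL5A2, COL4A1, COL4A2, COL7A1 and COL18A1 were the 5 that reached 100 TPM in any library. The 13 untested chains were COL1A2, COL6A3, COL6A5, COL6A6, COL8A1, COL8A2, COL9A1, COL10A1, COL13A1, COL14A1, COL19A1, COL23A1 and COL25A1, with at most 0.31 TPM and 15 expected counts in any library. COL25A1 had 0 counts throughout. COL8A1, a short-chain network collagen, had 6 and 12 counts in AXL shRNA cultures and none in the other 6 libraries. Another 6 chains were tested but stayed under 1 TPM in all libraries.

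The difference between the TP-0903 and AXL shRNA effects was tested directly, and 9 of 31 collagen chain genes were called, against 20.6% of all tested genes (9.82% higher and 10.8% lower). The TP-0903 effect was the higher for COL4A3, COL4A4, COL4A5, COL4A6 and COL27A1, and the lower for COL1A1, COL3A1, COL5A3 and COL26A1. The sizes were 2.05 (adjusted p = 0.0245) for COL4A3, 2.38 (0.00621) for COL4A4, 1.66 (0.00259) for COL4A5 and 2.39 (0.00166) for COL4A6. They were -5.26 (adjusted p = 0.00332) for COL3A1, -3.23 (0.00622) for COL5A3, -1.82 (0.0406) for COL1A1, -1.99 (0.0273) for COL26A1 and 0.67 (0.0179) for COL27A1. Each effect was taken against its own control group, so these differences hold the gap between the control groups as well. Control shRNA minus control was 1.41 for COL4A3, 1.10 for COL4A4, 0.95 for COL4A5, 0.97 for COL4A6 and 0.84 for COL27A1. Against control, AXL shRNA gave -0.26, -1.03, 0.32, -0.59 and 0.90 for these, in that order. For COL1A1, COL3A1, COL5A3 and COL26A1 it gave 0.88, 3.10, 4.10 and -0.28. COL4A1 (difference -0.61, adjusted p = 0.633) and COL7A1 (0.55, adjusted p = 0.213) did not pass, and COL4A1 was 0.25 and COL4A2 0.09 without control P17. With the block 17 of 31 passed, against 36.9% of all tested genes. These added COL2A1 (adjusted p = 0.0406), COL4A2 (-0.62, 0.0366), COL6A1 (-1.17, 0.00117) and COL7A1 (0.53, 0.0410). They also added COL12A1 (0.91, 0.00186), COL16A1 (0.78, 0.0209), COL18A1 (0.57, 0.0363) and COL24A1 (3.03, 0.0354). COL2A1 passed the count filter through the AXL shRNA libraries alone, which made a high value there a condition of being tested. Its call is therefore not read as a result. The unblocked calls of COL3A1, COL5A3, COL4A4, COL4A5 and COL4A6 were kept without any 1 library. That of COL1A1 was lost in 7 of 8 such fits, all but the one without AXL shRNA P15 (adjusted p = 0.0596 to 0.122), and also on library totals (0.0532) and with limma-voom (0.0614). That of COL4A3 was lost in 6, all but those without AXL shRNA P15 or TP-0903 P17 (0.0501 to 0.0880). That of COL26A1 was lost in 6, all but those without control shRNA P3 or control P17 (0.0581 to 0.0936), and on log2(TPM + 0.1) (0.0553). That of COL27A1 was lost in 4, those without control shRNA P15, AXL shRNA P15, control P17 or TP-0903 P4 (0.0538 to 0.0619), and on log2(TPM + 1) (0.111), log2(TPM + 0.1) (0.103) and with effective lengths as offsets (0.137).

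Between the control groups, 6 of 31 collagen chain genes were called higher in control shRNA than in control cultures, against 9.15% of all tested genes (3.06% higher and 6.09% lower). They were COL4A3, COL4A4, COL4A5, COL4A6, COL18A1 and COL27A1. When AXL shRNA was set against control, 10 of 31 were called (8 higher and 2 lower), against 36.8% of all tested genes. The 8 include COL2A1, which passed the count filter through the AXL shRNA libraries alone, so its call is not read as a result. These comparisons share libraries with those above and are not independent of them.

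A first value in parentheses after a gene of the collagen machinery is its log2 fold change, unless named as a p. The counts of each list stand against 37.5% of all tested genes called with AXL shRNA and 11.3% with TP-0903, and against 51.7% and 26.3% under the block. Of 15 tested genes for prolyl and lysyl modification, 8 rose and 1 fell with AXL shRNA (60% called), and 4 rose with TP-0903 (26.7%). The median log2 fold change was 0.48 with AXL shRNA and 0.23 with TP-0903, against -0.01 and -0.02 over all tested genes. PLOD2, the lysyl hydroxylase of collagen ends, had 374 and 391 TPM in AXL shRNA cultures, against 165 and 120 TPM in control shRNA cultures (log2 fold change 1.67, SE 0.21, adjusted p = 0.00145). It had 418 and 289.8 TPM in TP-0903 cultures, against 208 and 154 TPM in control cultures (log2 fold change 1.06, SE 0.21, adjusted p = 0.0200). PLOD1, another lysyl hydroxylase, had 139 and 139 TPM in AXL shRNA cultures, against 84.2 and 64.8 TPM in control shRNA cultures (log2 fold change 1.18, SE 0.14, adjusted p = 0.00122), and 156 and 125 TPM in TP-0903 cultures, against 82.5 and 78 TPM in control cultures (log2 fold change 0.85, SE 0.14, adjusted p = 0.0108). Both genes were higher in every treated culture than in its controls. COLGALT1, which adds galactose to hydroxylysine, rose with AXL shRNA (1.41, adjusted p = 9.89e-04), as did the prolyl 4-hydroxylase subunits P4HA1 (0.88, adjusted p = 0.00189) and P4HA2 (1.19, adjusted p = 0.00630). P4HA2 also rose with TP-0903 (1.00, adjusted p = 0.0311). P3H2, a prolyl 3-hydroxylase of type IV collagen, rose with TP-0903 (1.13, adjusted p = 0.00561) and with AXL shRNA (0.48, adjusted p = 0.0476). Its TPM overlapped between AXL shRNA and control shRNA cultures, at 27.9 and 30.6 against 25.2 and 29.9. CRTAP, a partner of the prolyl 3-hydroxylase P3H1, fell with AXL shRNA (-1.20, adjusted p = 0.00227). With the block 6 of the 15 rose with TP-0903, PLOD3 (adjusted p = 0.0157) and COLGALT1 (adjusted p = 0.0192) in addition, and P4HA3 fell with AXL shRNA (adjusted p = 0.0202).

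Of 13 tested genes for procollagen folding and export, 5 rose and 3 fell with AXL shRNA (61.5% called), and 1 rose with TP-0903 (7.69%, below the share of all tested genes). SERPINH1, the collagen chaperone HSP47, had 348 and 307 TPM in AXL shRNA cultures, against 101 and 93.9 TPM in control shRNA cultures (log2 fold change 2.01, SE 0.17, adjusted p = 4.49e-04). It had 100.4 and 83.3 TPM in TP-0903 cultures, against 126 and 99.2 TPM in control cultures (log2 fold change -0.24, adjusted p = 0.372). Both AXL shRNA cultures were far above the 6 others. The vesicle coat genes SEC23A (1.02, adjusted p = 0.00182) and SEC24D (0.80, adjusted p = 0.00526) and the retrieval receptor KDELR2 (0.42, adjusted p = 0.0281) also rose with AXL shRNA. The foldase gene FKBP10 (-1.02, adjusted p = 0.00133), the chaperone HSPA5 (-0.97, adjusted p = 0.00368) and the ion channel gene TMEM38B (-0.90, adjusted p = 0.00426) fell with it. FKBP14, another foldase, was the gene that rose with TP-0903 (0.55, adjusted p = 0.0464), while limma, on voom values or on log2(TPM + 1), called 0 of the 13 with TP-0903. In edgeR 2 of the 13 had an unadjusted p under 0.05, and DESeq2 called 1.

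Of 6 tested genes for propeptide removal, 2 rose with AXL shRNA (33.3%) and 1 with TP-0903 (16.7%). One of the pair with AXL shRNA was ADAMTS2, which passed the count filter through the AXL shRNA libraries alone, and without it 1 of 5 rose (20%). Limma, on voom values or on log2(TPM + 1), called 1 of the 6 with AXL shRNA. ADAMTS2, the protease that removes the amino-terminal propeptide of fibrillar procollagens, had 2.21 and 2.49 TPM in AXL shRNA cultures, against 0.03 and 0 TPM in control shRNA cultures (adjusted p = 0.00132), and at most 0.08 TPM in any TP-0903 or control culture. PCOLCE2, an enhancer of propeptide removal, rose with AXL shRNA (1.36, adjusted p = 0.0358), and with TP-0903 under the block (adjusted p = 0.00176). BMP1, which removes the carboxy-terminal propeptide, rose with TP-0903 (1.12, adjusted p = 0.0115), and with AXL shRNA under the block (adjusted p = 0.00596). With the block TLL1 was called with AXL shRNA as well (adjusted p = 0.0317). Of 4 tested cross-linking enzymes, 3 rose with AXL shRNA (DESeq2 and limma on log2(TPM + 1) called 2), namely LOXL2 (1.38, adjusted p = 0.00526), LOXL4 (0.81, adjusted p = 0.0120) and LOX (1.06, adjusted p = 0.0478). LOXL4 also rose with TP-0903 (1.36, adjusted p = 0.00492), and LOXL2 did so under the block (adjusted p = 0.00509).

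Of 8 tested collagen receptor genes, ITGA2 and DDR1 rose with both treatments and ITGB1 fell with AXL shRNA. That is 37.5% of the list with AXL shRNA, the same share as over all tested genes, and 25% with TP-0903. ITGA2, the integrin subunit that gives collagen binding its specificity, had 53.1 and 65.3 TPM in AXL shRNA cultures, against 15.7 and 21.2 TPM in control shRNA cultures (log2 fold change 1.92, SE 0.28, adjusted p = 0.00239). It had 40.6 and 25.5 TPM in TP-0903 cultures, against 9.67 and 12.4 TPM in control cultures (log2 fold change 1.61, SE 0.28, adjusted p = 0.0124). ITGB1, its partner subunit, had 667 and 688 TPM in AXL shRNA cultures, against 1855 and 1582 TPM in control shRNA cultures (log2 fold change -1.06, SE 0.14, adjusted p = 0.00155). It had 1439 and 1253 TPM in TP-0903 cultures, against 1423 and 1322 TPM in control cultures (log2 fold change 0.03, adjusted p = 0.905). The partners of this receptor thus moved in opposite directions with AXL shRNA, without overlap. DDR1, a collagen-binding kinase, changed by 0.69 (adjusted p = 0.00682) with AXL shRNA and 0.73 (adjusted p = 0.0154) with TP-0903. With the block ITGA10 was called lower with TP-0903 (adjusted p = 0.0319). Of 8 tested collagen-cleaving enzymes, MMP1 and MMP13 rose and MMP2 fell with AXL shRNA, and none was called by edgeR with TP-0903. MMP1 and MMP13 passed the count filter through the AXL shRNA libraries alone, and without them 1 of 6 was called with AXL shRNA (16.7%). For TP-0903, 2 of the 8 had an unadjusted p under 0.05 in edgeR, DESeq2 called 2, and limma, on voom values or on log2 TPM, called 0. MMP1, an interstitial collagenase, had 0.69 and 1.73 TPM in AXL shRNA cultures, against 0.03 and 0.02 TPM in control shRNA cultures (adjusted p = 0.00406), and MMP13 had 0.21 and 0.18 TPM in AXL shRNA cultures, against 0 and 0 TPM in control shRNA cultures (adjusted p = 0.00814). Both levels were low even where they were highest. MMP2, a gelatinase that also acts on type IV collagen, changed by -0.66 (adjusted p = 0.0387). With the block, MMP9 (adjusted p = 0.0159) and MMP16 (adjusted p = 0.0442) were also called higher with AXL shRNA. With TP-0903 the block called MMP2 (adjusted p = 0.0150) and MMP9 (adjusted p = 0.0467), both higher, so MMP2 differed in direction from its change with AXL shRNA.

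**Figure D5:**
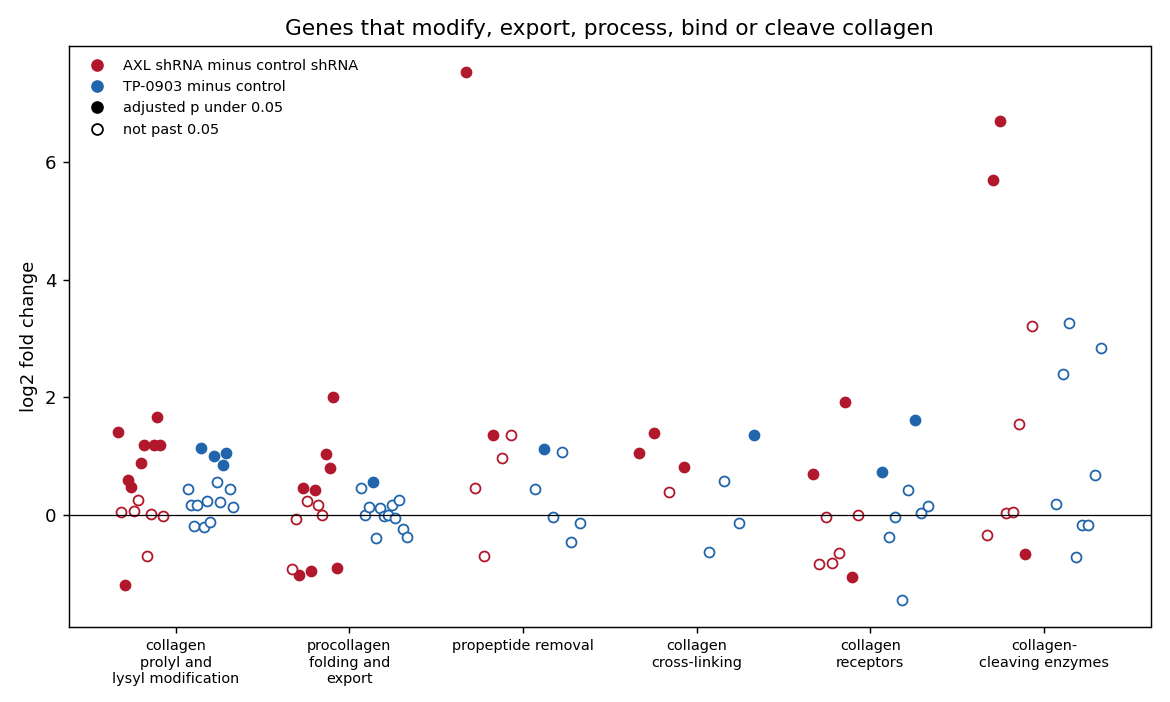
Log2 fold change of each tested gene in 6 lists of genes that modify, export, trim, cross-link, bind or cleave collagen; red is AXL shRNA minus control shRNA, blue is TP-0903 minus control, and filled points are called. Of the 15 modification genes, 8 rose with AXL shRNA and 4 with TP-0903; points above 5 are genes at or near 0 TPM in control shRNA cultures.

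Markers of other cell types were read beside these values. Summed fibroblast markers had 58.2 and 66.4 TPM in AXL shRNA cultures, against 58.7 and 53.4 TPM in control shRNA cultures, and 122 and 101 TPM in TP-0903 cultures, against 27.6 and 38.6 TPM in control cultures. Most of this was ACTA2, smooth muscle actin, which was called higher with TP-0903 (1.95, adjusted p = 0.00133). FAP, DCN, POSTN and PDPN stood at 0.20 TPM or less in every library, while LUM had 6.50 and 4.65 TPM in AXL shRNA cultures, against 1.99 and 1.29 TPM in control shRNA cultures (2.04, adjusted p = 0.0253). Of the 9 fibroblast markers, 5 were tested, and LUM was the 1 called with AXL shRNA and ACTA2 the 1 called with TP-0903. Summed epithelial markers had 20570 and 18120 TPM in AXL shRNA cultures, against 7365 and 6164 TPM in control shRNA cultures, with 5 of 6 called higher, and 11720 and 12280 TPM in TP-0903 cultures, against 8970 and 10090 TPM in control cultures, with 2 of 6 called higher (0 by limma on log2(TPM + 1)). Endothelial markers summed to at most 3.59 TPM, with KDR at 0 throughout, and leukocyte markers to at most 28.0 TPM, with PTPRC at 0.02 TPM or less. Summed alveolar type II markers had 7.26 and 6.67 TPM in AXL shRNA cultures, against 19.3 and 12.9 TPM in control shRNA cultures. They had 20.5 and 13.6 TPM in TP-0903 cultures, against 14.1 and 8.73 TPM in control cultures. Of these 5 markers only 1 was tested, and it was called lower with AXL shRNA and not called with TP-0903. The part of these levels and of the mitochondrial share in the collagen results was not tested.

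Some chains followed the P number, at about the share of all tested genes. On log2 CPM (counts scaled by library, with no length correction), in all 4 groups COL11A1, COL12A1, COL16A1, COL17A1 and COL28A1 were higher in the P15 or P17 culture, and COL3A1, COL5A2, COL9A3 and COL11A2 were higher in the P3 or P4 culture. These 9 are 29% of the 31 tested chains, against 26.8% of all tested genes. Among them, COL9A3 and COL28A1 were low, with 0.71 and 1.40 TPM at most.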

How the data were processed

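Per the labels' protocols, total RNA was extracted from A549 cultures with the PureLink kit, and sequencing libraries used Nextera XT reagents; strand is not stated. Reads were aligned to GRCh38 with STAR 2.5.3a and quantified with RSEM (its version and annotation not given in the sources used here), per the submitters' processing notes. Expected counts, as deposited, are estimated counts for each gene and library, without normalization. TPM, also deposited, were computed by the authors' RSEM from effective length and depth in each library. The effective lengths deposited beside them, one value per gene and library, served as offsets in an alternative.

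Expected counts were rounded to whole numbers, filtered with filterByExpr, scaled by TMM and fitted in 1 edgeR (4.0.16) quasi-likelihood model of 8 libraries and 4 groups (R 4.3.3). It left 17676 of 58302 genes, with a biological coefficient of variation of 21.5%. Tests were two-sided, with Benjamini-Hochberg adjustment over all tested genes and a threshold of 0.05. The SE is the size of the log2 fold change divided by the square root of F. Each treatment was set against its own control, the 2 effects were compared by an interaction contrast, and the control groups were compared as a description. The procedure was tested on simulated data. Positions come from GENCODE release 29 and promoter windows from RefSeq (GRCh38.p14).

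Text names every collagen chain called in a treatment contrast or their difference, or with a mean of at least 5 TPM, and up to 4 called genes with the smallest p per direction and contrast in each list. Members and lists were chosen with earlier results of these data known. Libraries that share a P number deviated together from their group means, with correlations across genes of 0.444 (AXL shRNA and control shRNA) and 0.450 (TP-0903 and control), against 0.171 to 0.309 between groups without shared numbers, so the numbers were taken to pair the libraries. The 2 libraries of a group differed by more than counting error. Alternatives used DESeq2 (1.42.0), limma (3.58.1), other scalings and filters, the pairing, the 4 libraries of a comparison alone, and each library left out in turn; a control group exchange was added after the data were seen.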

Additional observations from a re-analysis of the deposited data

How the results depend on the processing

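With AXL shRNA, 13 collagen chain genes were called, and 7 to 13 when 1 library was left out. With TP-0903, 6 were called, against 18 with no filter on low counts, 3 on log2(TPM + 0.1), 17 with the replicate block, 3 with only the 4 libraries of the comparison, and 2 to 5 when 1 library was left out. Over all genes, 1989 were called with TP-0903, against 3515 with no filter, 3002 with DESeq2, 4647 with the replicate block and 487 to 1797 when 1 library was left out. For the difference of effects, 9 collagen chain genes were called, against 14 with no filter, 17 with the replicate block and 5 to 9 with a library left out. Over all genes it called 3645, against 6530 with the replicate block and 1896 to 2744 with a library left out. Control shRNA minus control called 6 collagen chain genes, against 17 with no filter, 10 with DESeq2, 3 on log2(TPM + 1), 3 on log2(TPM + 0.1) and 1 to 6 with a library left out. Over all genes it called 1618, against 3352 with no filter, 2758 with DESeq2 and 348 to 1301 with a library left out. The cause of these shifts was not tested. Where 1 library was left out of a group, the lone library was assumed to vary like the other groups. On summed CPM the log2 ratio with AXL shRNA was 0.62 for basement membrane and 0.42 for other chains, against 0.34 and 0.32 on TPM.

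The directions that reversed were those of chains not called in that comparison, except COL4A5 against the other control. With AXL shRNA, COL11A1 was -0.19 on library totals, -0.0794 on log2(TPM + 1), -0.0756 on log2(TPM + 0.1) and -0.49 to 0.83 with a library left out. COL27A1 was -0.14 on library totals, -0.0333 on log2(TPM + 1) and -0.0356 on log2(TPM + 0.1). COL16A1 was 0.0412 on log2(TPM + 1), 0.0464 on log2(TPM + 0.1), 0.27 with effective lengths and -0.16 to 0.0741 with a library left out. With a library left out COL12A1 was -0.73 to 0.0573 and COL18A1 -0.33 to 0.0872. Against control in place of control shRNA, COL5A1 was -0.0937, COL4A5 0.32, COL26A1 -0.28, COL12A1 0.38, COL16A1 0.22 and COL18A1 0.73. With TP-0903 and a library left out, COL11A1 was -0.62 to 0.45, COL2A1 -3.60 to 0.65, COL5A1 -0.41 to 1.22, COL4A3 -0.0345 to 0.71, COL4A4 -0.00974 to 0.53 and COL12A1 -0.0320 to 1.16. For the difference of effects, COL5A2 was 0.0331 on library totals, 0.12 on log2(TPM + 1), 0.12 on log2(TPM + 0.1) and -0.34 to 0.18 with a library left out. COL6A2 was 0.0567 on log2(TPM + 1) and -0.94 to 0.31 with a library left out. With a library left out COL11A1 was -1.01 to 0.43, COL5A1 -1.42 to 0.21, COL4A1 -1.48 to 0.25 and COL4A2 -1.28 to 0.0894. For control shRNA minus control, COL11A1 was -0.59 to 0.85 and COL5A3 -0.42 to 0.30. The cause was not tested.

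The median log2 fold change of all genes with AXL shRNA was -0.21 on library totals, -0.15 on log2(TPM + 1) and -0.21 on log2(TPM + 0.1), against -0.01 with TMM, so values on those scales sit lower by about that much. Of all genes called with AXL shRNA, 49.4% were higher, against 32.8% on library totals, 31.3% on log2(TPM + 1) and 31.1% on log2(TPM + 0.1). With TP-0903 it was 43.5%, against 33.3% on library totals, 25.1% without control P17, 26.1% without TP-0903 P17 and 27.7% without control P4. For the difference of effects it was 47.6%, against 61%, 63.5% and 64.2% on library totals, log2(TPM + 1) and log2(TPM + 0.1). For control shRNA minus control it was 33.4%, against 50.2% with no filter, 43.9% with DESeq2 and 10.3% (without control P17) to 34.6% (without AXL shRNA P15) with a library left out. COL3A1, COL5A3, COL6A1, COL4A4 and COL4A6 stayed called with AXL shRNA in all 20 alternatives. With the number as a replicate block, 18 collagen chain genes were called with AXL shRNA, and the block changed no call of a collagen chain beyond those given above. With 2 cultures a group, p-values rest on the spread shared over groups, and chains under about 1 TPM have too few reads for small changes to be seen.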

Other observations

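COL21A1, a fibril-associated chain named here after its values were seen, is a case where level and count pointed in different directions. It had 4.35 and 1.75 TPM in AXL shRNA cultures, against 4.43 and 4.77 TPM in control shRNA cultures. On counts its log2 fold change was 0.26 (SE 0.42, adjusted p = 0.654 in edgeR). Its deposited transcript length was 3216 and 3349 bases in AXL shRNA libraries, against 2702 and 1790 bases in control shRNA libraries. It was 3507 and 1833 bases in TP-0903 libraries, against 2686 and 2652 bases in control libraries. This length is RSEM's mean over the gene's transcripts, weighted by their estimated abundance. Among the 31 tested chains, COL9A2, COL11A1, COL16A1 and COL27A1 also differed in sign between the TPM means and the counts with AXL shRNA, and none of the 5 was called.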
